A study of Mus musculus with 2 samples.

Results

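The 44 genes described here encode chromatin remodelers, histone acetyltransferases with their p160 coactivators, and histone deacetylases with subunits of the NCoR corepressor. They were named individually by gene symbol and found by that symbol and its GENCODE M21 identifier among 55536 annotated mouse genes. The list holds 21 remodelers, 11 acetyltransferases or coactivators and 12 deacetylases or corepressors. The RNA came from the chromatin of macrophages that had been grown from C57BL/6J mouse bone marrow. The cells had received 100 ng/ml lipid A, the part of lipopolysaccharide sensed by the receptor TLR4, for 75 min. Total RNA of the chromatin fraction was depleted of ribosomal RNA and sequenced in 2 libraries that form 1 group, replicate 1 from 250 ng and replicate 2 from 500 ng of RNA. Both libraries carry the same donor label, and the sources used here give neither the age and sex of the mice nor whether the replicates came from separate animals. No untreated cells and no other fraction were analysed here, so none of the values describes a response to lipid A.

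Remodelers use ATP to slide, evict or restructure nucleosomes, acetyltransferases put acetyl groups on histone tails, and deacetylases take them off. In macrophages the BAF remodeler and the acetyltransferases p300 and CBP are known for opening inflammatory genes and enhancers after TLR4 is engaged, and NCoR with HDAC3 is known for holding such genes down. Such RNA is rich in nascent and partly processed transcripts, so a level here is the amount of a gene's RNA on chromatin and not the amount of its protein. In a bulk sample, fewer cells with a transcript and less of it in each cell cannot be told apart.

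The libraries held 21453621 and 29638768 rounded expected counts on annotated genes in replicates 1 and 2. Levels are in TPM, counts scaled by transcript length and by the total of the table, and a gene was taken as expressed at 1 TPM or more in both replicates. Of 10 macrophage markers 9 were expressed, with Fcgr1 at 0.93 and 2.09 TPM as the exception, and all 10 listed lipid A response genes were expressed. By the first of the authors' 2 quantifications, used throughout unless stated, no marker of B cells, T and NK cells, neutrophils, stromal and endothelial cells or dendritic cells was expressed. The second quantification, made directly from the reads, put 7 of these markers at 1 TPM or more in both replicates: Cd3d at 12.97 and 28.82 TPM, Pecam1 at 3.36 and 8.67 TPM, and Kdr, Ebf1, Ms4a1, Cd4 and Zbtb46 at or below 5.53 TPM. Their part in the levels below was not tested. By the first quantification, of 6 erythroid, megakaryocyte and mast cell markers, Itga2b alone passed, at 1.29 and 1.32 TPM. Summed over a list, macrophage markers came to 309.94 and 494.01 TPM, and no list of another cell type exceeded 5.16 TPM in either library, again by the first quantification.

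The 44 genes had between 82 and 15551 expected counts in replicate 1 and between 92 and 17400 in replicate 2. In 35 of them the count was whole in both libraries, within 0.005. Exons of 21 of the genes are overlapped by another annotated gene, 14 on the opposite strand and 8 on the same strand. The TPM lay outside the deposited interval in both replicates for 3 genes, above it for Smarca4 and below it for Smarca2 and Hdac5.

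The 44 genes were chosen with earlier results of these data known. RNA of nearly all of them was found on chromatin: 42 of the 44 genes were expressed, beside 34.7% of all protein-coding genes. The exceptions were the acetyltransferase gene Kat2b, at 0.63 and 2.77 TPM, and the class IIa deacetylase gene Hdac7, at 1.14 and 0.99 TPM. Both passed in the second quantification, Kat2b at 2.04 and 5.53 TPM and Hdac7 at 1.76 and 1.89 TPM. All 44 genes were expressed there, and the share of all protein-coding genes was not counted for it. The 44 genes had a median of 9.61 TPM in replicate 1 and 18.16 TPM in replicate 2, against 5.82 and 10.42 TPM for expressed protein-coding genes. Above that median stood 31 of the 44 in replicate 1 and 26 in replicate 2. By class, the remodelers had medians of 15.81 and 25.53 TPM, the acetyltransferases and coactivators 9.57 and 14.81 TPM, and the deacetylases and corepressors 6.18 and 8.08 TPM. The order of the genes was much alike in both libraries (Spearman rho 0.95 over 44 genes, a description, since the genes share both libraries). Close neighbours in that order cannot be ranked: of 43 neighbouring pairs by mean level, 14 stood in the same order in both replicates, and the rest changed places between them.

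**Figure D1:**
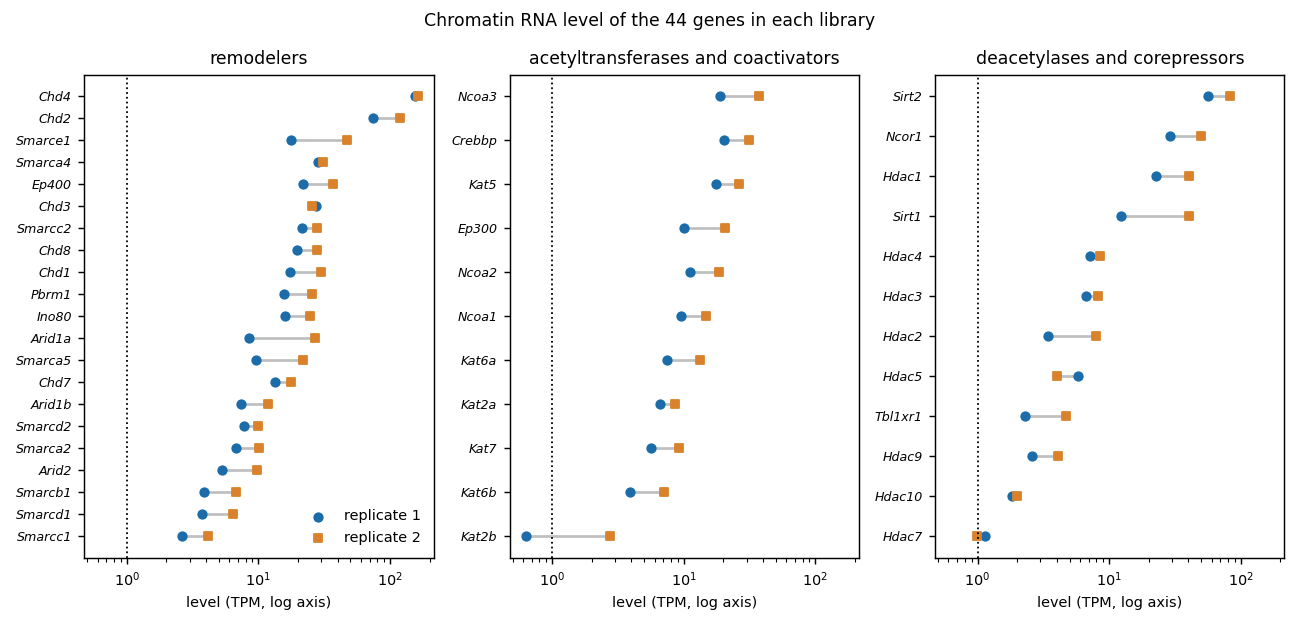
Level of each of the 44 genes in TPM on a log axis, with circles for replicate 1, squares for replicate 2 and a dotted line at 1 TPM, grouped by class and sorted by mean. Chd4 stands apart at 153.88 and 162.63 TPM, 3 genes lie higher in replicate 1 and 41 in replicate 2.

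Most of the promoters of these genes were rich in CpG dinucleotides, a feature the list did not use. RefSeq (GRCm38.p6) gave 42 promoter windows for 32 of the genes, each from 250 bases before to 50 bases after a transcription start. They held a median of 29.5 CpG per 300 bases (range 0 to 49) and 68.0% G and C, against 21 CpG and 61.3% for expressed protein-coding genes and 7 CpG and 52.7% for all promoters. Searched on both strands, the letters GGGCGG, the core of a GC box, were in 73.8% of the 42 windows, in 64.3% of those of expressed protein-coding genes and in 35.7% of all. The letters TATAAA were in 4.76%, 6.88% and 13.6% in the same order, CCAAT in 23.8%, 36.0% and 37.4%, and CCGGAA in 26.2%, 29.8% and 14.9%. The letters of these motifs were counted separately, and a match is a description and not a binding site. No window was used for Hdac10, Chd1, Chd7, Smarce1, Ncoa3, Arid2, Kat6a, Chd3, Ncoa2, Hdac3, Chd2 and Hdac1.

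The following 3 windows, of the abundant Chd4 and the scarce Kat2b and Hdac9, run from a CpG number near the median of the set to its lowest; each is printed 5′ to 3′ on the gene's strand, with CpG dinucleotides in capitals. The Chd4 window lies at chr6:125095913-125096212 on the plus strand and holds 29 CpG. The Kat2b window lies at chr17:53566721-53567020 on the plus strand and holds 11 CpG. The Hdac9 window lies at chr12:34917046-34917345 on the minus strand, holds 0 CpG and contains the letters TATAAA.
Chd4: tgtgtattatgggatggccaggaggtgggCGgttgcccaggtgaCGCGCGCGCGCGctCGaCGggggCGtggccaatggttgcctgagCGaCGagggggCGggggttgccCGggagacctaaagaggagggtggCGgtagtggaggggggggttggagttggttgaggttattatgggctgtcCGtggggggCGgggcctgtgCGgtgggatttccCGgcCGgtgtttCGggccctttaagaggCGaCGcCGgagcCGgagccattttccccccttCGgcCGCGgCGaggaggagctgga
Kat2b: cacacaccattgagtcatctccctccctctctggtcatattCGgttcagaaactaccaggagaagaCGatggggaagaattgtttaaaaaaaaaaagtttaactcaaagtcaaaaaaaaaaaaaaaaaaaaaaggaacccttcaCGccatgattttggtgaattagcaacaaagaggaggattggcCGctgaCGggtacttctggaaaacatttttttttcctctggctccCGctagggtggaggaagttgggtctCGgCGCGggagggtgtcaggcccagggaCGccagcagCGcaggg
Hdac9: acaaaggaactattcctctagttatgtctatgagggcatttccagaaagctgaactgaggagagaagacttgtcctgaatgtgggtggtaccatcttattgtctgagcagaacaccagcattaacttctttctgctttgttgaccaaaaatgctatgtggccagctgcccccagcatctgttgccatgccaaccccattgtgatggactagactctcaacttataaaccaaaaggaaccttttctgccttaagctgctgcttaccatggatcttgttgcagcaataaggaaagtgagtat
Each of the 3 genes has a further window, with 17 CpG for Chd4, 6 for Kat2b and 3 for Hdac9. These 3 genes differ in both level and CpG number, and no relation between the measures was tested. Other genes did not follow the same pattern: the scarce Hdac7 has windows with 5, 31, 35 and 6 CpG, and the abundant Ncor1 has windows with 2 and 36.

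Chd4, the ATPase of the NuRD complex, which couples remodeling to deacetylation, was the most abundant of the set by the first quantification. Its gene (chr6:125095981-125130591, mm10, plus strand) gave 153.88 TPM in replicate 1 and 162.63 TPM in replicate 2 (158 ± 6.19, SD, n = 2), from 15551 and 17400 counts. Chd4 alone made up 20.6% and 14.4% of the TPM of the 44 genes, and it stood at the 97.4th percentile of expressed protein-coding genes by mean level. The deposited interval of its level ran over 141 to 155 TPM and 151 to 163 TPM, with no overlap with the interval of any other gene of the set. Its paralog Chd3, the other main NuRD ATPase, had 27.56 and 25.53 TPM. Chd4 thus exceeded Chd3 5.58-fold and 6.37-fold, 6.34-fold and 7.83-fold in the second quantification, and 4.55-fold and 5.25-fold over protein_coding transcripts of the first. Among annotated Chd4 transcripts, the 39-exon coding Chd4-202 had the most TPM, at 33.7% and 28.3% of the gene.

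Chd2, a remodeler found at transcribed genes, was next at 73.79 and 119.41 TPM, from 7328 and 13387 expected counts. The second quantification gave Chd4 139 and 172 TPM and Chd2 112 and 195 TPM, so there Chd2 was the higher of the 2 in replicate 2. Its exons on the same strand overlap 1810026B05Rik, at 17.14 and 46.67 TPM, so part of the assignment is an estimate. Chd1, which reads methylated histone H3 at active genes, had 17.45 and 29.83 TPM, 0.24-fold and 0.25-fold of Chd2. That gap was over 2-fold in both replicates also in the second quantification (0.19 and 0.24) and over protein_coding transcripts alone (0.28 and 0.39). Chd8, a regulator of beta-catenin targets in other systems, had 19.59 and 27.92 TPM, and Chd7, a remodeler of enhancers, had 13.38 and 17.78 TPM. Chd8 was 1.46-fold and 1.57-fold of Chd7, under 2-fold in both replicates. The ratio was 1.89-fold and 2.69-fold in the second quantification and 1.00-fold and 1.03-fold over coding transcripts.

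The BAF and PBAF complexes can be assembled from alternative paralogs. Of their pairs compared here, only Smarcc1 and Smarcc2 were over 2-fold apart in both replicates by both quantifications and over coding transcripts alone. Of the ATPases, Smarca4 (BRG1) had 28.30 and 31.15 TPM and Smarca2 (BRM) had 6.81 and 10.04 TPM. The ratio of Smarca4 to Smarca2 was 4.16-fold and 3.10-fold. It did not hold in the second quantification, where it was 1.84-fold and 0.92-fold with Smarca2 at 14.87 and 34.47 TPM, while coding transcripts alone gave 8.79-fold and 7.14-fold. The TPM of Smarca2 also lay below its own deposited interval in both replicates, 8.50 to 11.5 and 11.9 to 15.1 TPM, so its level is uncertain. Transcripts annotated as nonsense_mediated_decay made up 28.5% of Smarca2 TPM on average, the highest share among the 44 genes.

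Of the scaffold subunits, Smarcc2 (BAF170) far exceeded Smarcc1 (BAF155). Smarcc2 had 21.58 and 28.01 TPM, and Smarcc1 had 2.63 and 4.18 TPM, among the 6 lowest of the set. Smarcc1 was 0.12-fold and 0.15-fold of Smarcc2, 0.13-fold and 0.14-fold in the second quantification and 0.05-fold and 0.09-fold over coding transcripts. Smarcc1 shares exonic sequence with Dhx30 on the other strand, at 6.00 and 9.91 TPM. Smarcd1 had 3.74 and 6.45 TPM and Smarcd2 had 7.84 and 9.97 TPM, a ratio of 0.48 and 0.65 that passed 2-fold in replicate 1 only. In the second quantification the ratio was 0.46 and 0.49, past 2-fold in both, and over coding transcripts 0.64 in each.

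The remaining BAF and PBAF subunits spread over the same range. Smarce1 (BAF57), a DNA-binding subunit, was the most abundant at 17.66 and 47.01 TPM, more than 2-fold higher in replicate 2 as measured. The small core subunit Smarcb1 had 3.84 and 6.76 TPM. Of the ARID subunits that define the canonical BAF complex, Arid1a had 8.54 and 27.02 TPM and Arid1b had 7.41 and 11.85 TPM; their ratio was 1.15-fold in replicate 1 and 2.28-fold in replicate 2. The replicates thus differed on whether Arid1a exceeded Arid1b by 2-fold. The PBAF subunits Pbrm1, whose bromodomains bind acetylated histones, and Arid2 had 15.81 and 25.80 TPM and 5.31 and 9.85 TPM.

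The other remodeler ATPases were mid-range. Ep400, the ATPase of the TIP60 complex, had 22.05 and 36.68 TPM, and Ino80, which acts on H2A.Z nucleosomes, had 15.86 and 24.81 TPM. Ino80 was 0.72-fold and 0.68-fold of Ep400, under 2-fold. Within the exons of Ep400 lies the snoRNA gene Gm26079, at 3969 and 1792 TPM from 210 and 107 expected counts, since TPM divides by a very short length. Smarca5 (SNF2H), the ISWI ATPase, had 9.65 and 21.91 TPM.

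Among the acetyltransferases the CBP gene led and PCAF was the lowest. Crebbp had 20.25 and 31.30 TPM and its paralog Ep300 had 10.05 and 20.51 TPM. Ep300 was thus 0.50-fold and 0.66-fold of Crebbp, 0.44-fold and 0.60-fold in the second quantification, and 0.20-fold and 0.26-fold over coding transcripts. In replicate 1 Ep300 was at the 2-fold mark and in replicate 2 inside it, and the pair is not called apart on all transcripts.

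Kat2a (GCN5), an acetyltransferase of the SAGA and ATAC complexes, had 6.57 and 8.56 TPM, and its paralog Kat2b (PCAF) had 0.63 and 2.77 TPM from 82 and 226 counts. The ratio was 10.4-fold in replicate 1 and 3.09-fold in replicate 2, 2.63-fold and 1.34-fold in the second quantification, and 3.32-fold and 1.54-fold over coding transcripts. Most of the Kat2a RNA was assigned to Kat2a-204, an 18-exon transcript annotated as processed_transcript with no coding sequence, at 58.5% and 65.4% of the gene. Kat2b in replicate 1 lay wholly on the coding Kat2b-201, in a library where its TPM was below its deposited interval of 0.98 to 3.09 TPM.

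The MYST acetyltransferases were led by Kat5 (TIP60), which acetylates H4 and H2A and takes part in DNA repair, at 17.52 and 26.47 TPM. Kat6a (MOZ) had 7.44 and 13.31 TPM and Kat6b (MORF) had 3.88 and 7.13 TPM, a ratio of 1.92-fold and 1.87-fold, just under 2-fold in both replicates. That ratio was 1.41-fold and 1.17-fold in the second quantification and 2.55-fold and 3.87-fold over coding transcripts. Kat7 (HBO1), which acetylates H3 and H4 with BRPF and JADE partners, had 5.64 and 9.15 TPM. The p160 coactivators, which bind nuclear receptors and recruit p300 and CBP, were ordered Ncoa3 (18.95 and 37.19 TPM), Ncoa2 (11.24 and 18.54 TPM) and Ncoa1 (9.57 and 14.81 TPM). The last place depended on which transcripts were counted: Ncoa1 was 0.85-fold and 0.80-fold of Ncoa2 on all transcripts and 1.92-fold and 1.90-fold on coding ones. Ncoa3 was 1.69-fold and 2.01-fold of Ncoa2, and past 2-fold in both replicates in the second quantification (2.85 and 3.60) and over coding transcripts (3.08 and 3.87).

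Among the deacetylases and corepressors, the sirtuin gene Sirt2 and the corepressor gene Ncor1 were the most abundant. Sirt2, a deacetylase that acts largely in the cytoplasm, had 56.00 and 83.39 TPM. Its gene (chr7:28766735-28788661, plus strand) shares exonic sequence with Nfkbib on the other strand, at 29.97 and 40.24 TPM, and whether strand was used in counting is not stated in these sources. Sirt1, a nuclear sirtuin known for deacetylating p65, had 12.28 and 40.25 TPM, 0.22-fold and 0.48-fold of Sirt2. In the second quantification that ratio was 0.31 and 0.65, and over coding transcripts 0.12 and 0.21.

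Ncor1, the scaffold that carries HDAC3 to unliganded receptors, had 29.22 and 49.70 TPM, with Ttc19 on the other strand at 10.09 and 19.11 TPM. Hdac3 itself, the catalytic partner of NCoR, had only 6.61 and 8.18 TPM. Tbl1xr1, an exchange factor of the same complex, had 2.28 and 4.71 TPM. It was the single gene of the 44 that the second quantification put over 2-fold higher in both replicates after scaling to the protein-coding median. Its level there was 8.92 and 19.43 TPM, 3.91-fold and 4.12-fold of the first as measured and 2.91-fold and 2.73-fold after that scaling. Among expressed protein-coding genes 6.71% were over 2-fold higher in both replicates after the same scaling.

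The class I deacetylases were carried by Hdac1. Hdac1 had 22.61 and 40.09 TPM and its paralog Hdac2, which joins it in NuRD, SIN3 and CoREST, had 3.42 and 7.98 TPM. Hdac1 was 6.61-fold and 5.02-fold of Hdac2 and 6.76-fold and 5.92-fold in the second quantification, but over coding transcripts the ratio was 2.61-fold and 1.70-fold. Coding transcripts held 21.4% of Hdac1 TPM on average.

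Class IIa deacetylases, signal-dependent corepressors that shuttle between nucleus and cytoplasm, were low. Hdac4 had 7.14 and 8.48 TPM, Hdac5 had 5.76 and 4.03 TPM, Hdac9 had 2.58 and 4.11 TPM and Hdac7 had 1.14 and 0.99 TPM. Hdac4 was 1.24-fold and 2.10-fold of Hdac5, and past 2-fold in both replicates in the second quantification (2.03 and 2.81) and over coding transcripts (2.12 and 2.21). Hdac7 was 0.44-fold and 0.24-fold of Hdac9, 0.54-fold and 0.28-fold in the second quantification, and 0.24-fold and 0.07-fold over coding transcripts. The class IIb gene Hdac10 had 1.84 and 1.99 TPM. Hdac9, whose gene covers 870 kilobases, the longest of the set, had most TPM on the 10-exon coding Hdac9-208. The genes of the set were long, with a median span of 72.7 kilobases against 26.7 kilobases for expressed protein-coding genes. Level and span had a Spearman rho of -0.06 over the 44 genes, a description within these libraries.

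Of the 17 related pairs compared within a library, where library scaling cancels, 8 were over 2-fold apart in both replicates on all transcripts. These were Smarca4 and Smarca2, Smarcc1 and Smarcc2, Chd4 and Chd3, Chd1 and Chd2, Kat2a and Kat2b, Hdac1 and Hdac2, Hdac7 and Hdac9, and Sirt1 and Sirt2. The second quantification called 7 pairs: 4 of the 8, and Smarcd1 and Smarcd2, Ncoa3 and Ncoa2, and Hdac4 and Hdac5 besides. Coding transcripts called 10, among them Ep300 and Crebbp, Kat6a and Kat6b, Ncoa3 and Ncoa2, and Hdac4 and Hdac5, which all transcripts of the first quantification did not call. Of the 4 shared by both quantifications, 3 also held over coding transcripts: Smarcc2 above Smarcc1, Chd4 above Chd3 and Chd2 above Chd1. How many other pairs of expressed genes lie as far apart was not counted, so these counts are not shown to be particular to related genes. With 2 replicates an exact two-sided permutation test cannot give a p below 0.333, so no test was made.

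**Figure D2:**
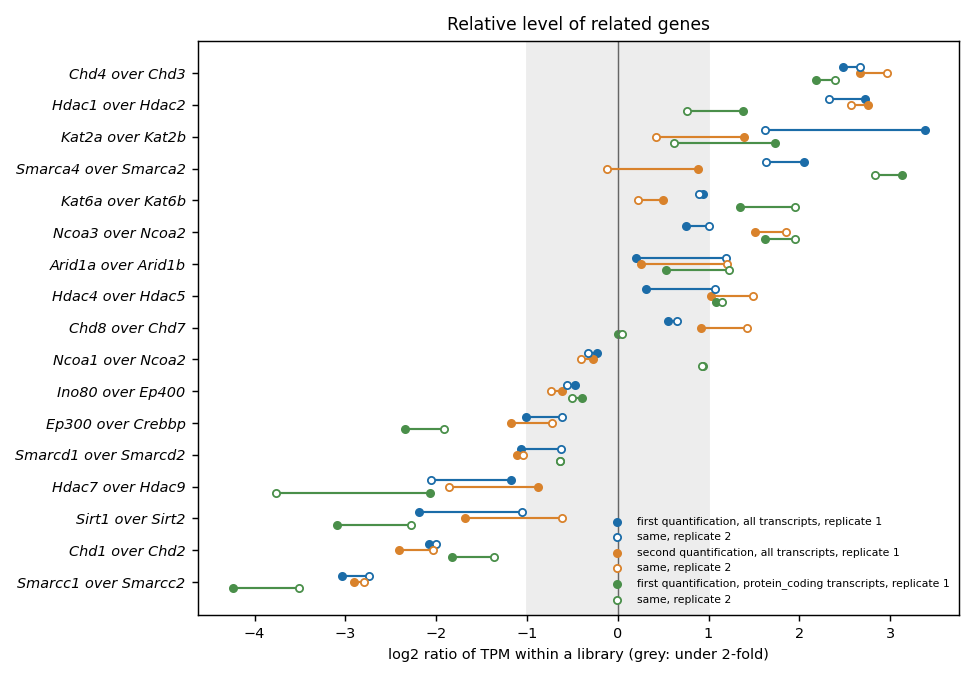
Log2 ratio of TPM within a library for 17 pairs of related genes, with filled points for replicate 1, open points for replicate 2 and colours for the first quantification, the second quantification and protein_coding transcripts alone. In 3 pairs all 6 points lie beyond 2-fold on the same side: Smarcc1 over Smarcc2, Chd1 over Chd2 and Chd4 over Chd3.

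GENCODE lists 439 transcripts for the 44 genes, a median of 8 per gene, and much of the RNA was assigned to those that carry intron sequence. Transcripts annotated as retained_intron held a median of 40.2% of a gene's TPM over the 35 expressed genes of the set that have such a transcript. The same median was 45.9% over 5233 expressed protein-coding genes, and 13 of the 35 stood above it. Counted by expected counts, which give weight to long transcripts, the medians were 14.5% and 29.3%. Unspliced RNA has no entry of its own in these tables, so RNA that retains an intron and RNA not yet spliced there cannot be told apart.

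Hdac1 had the highest retained intron share by the first quantification, 78.0% and 79.2% in replicates 1 and 2. Most of it was Hdac1-206, a transcript of 2 exons within chr4:129516268-129517518 on the minus strand, at the 3′ end of the gene, with 9.53 and 18.66 TPM, or 42.1% and 46.5% of the gene. The full-length coding Hdac1-201, of 14 exons, had 4.98 and 8.34 TPM. Next came Hdac3 (67.7% and 59.0%), Smarca5 (60.0% and 66.2%) and Smarcc1 (68.4% and 57.4%), whose leading transcript, Smarcc1-208, is a 25-exon retained_intron form. At the other end of the expressed genes stood Ncoa1 (0.00% and 3.92%), Smarca2 (2.50% and 2.69%), Hdac9 (5.04% and 15.8%) and Pbrm1 (13.3% and 16.4%). The order differed in the second quantification. There Smarca5 was highest at 85.6% and 87.1%, with Hdac1 at 79.9% and 81.7% and Chd8 at 75.5% and 83.7%. Hdac3 had 57.5% and 47.5% there, and Smarcc1 had 46.1% and 32.4%.

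In 34 of the 44 genes the transcript with the most TPM was annotated as coding, in 8 it was a retained_intron transcript and in 2, Kat2a and Smarce1, a processed_transcript. In Smarce1, Smarce1-205, of 3 exons, held 47.6% and 38.0% of the gene, and coding transcripts that keep the whole frame held 15.3% on average. Kat5 had 7.80% of its TPM on transcripts with at least 90% of its longest coding sequence, the lowest of the set, and its leading transcript was Kat5-212, a 2-exon coding form. At the high end, Kat6a had 93.6% and Ncoa3 79.5% on such full-length coding transcripts. In the second quantification Kat6a had 57.0% and Ncoa3 39.4%, and Smarca4 was the highest at 80.9%, beside 78.1% in the first. By the first quantification, the median full-length coding share was 38.2% over expressed genes of the set and 38.3% over expressed protein-coding genes.

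**Figure D3:**
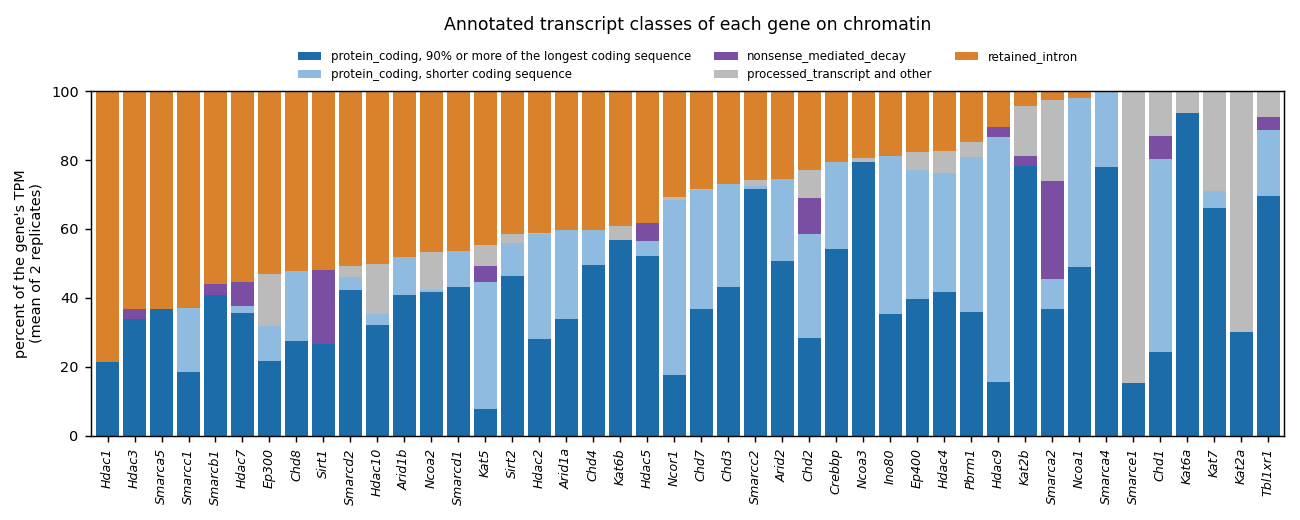
Percent of each gene's TPM on annotated transcript classes, as the mean of 2 replicates, with the 44 genes ordered by retained_intron share. Hdac1 leads at the left, 7 genes at the right have no annotated retained_intron transcript, and Smarce1 and Kat2a are mostly grey, the class of processed_transcript and other forms.

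By TPM the libraries differed mainly by a common shift, whose size depended on the scaling. Expressed protein-coding genes had a median log2 ratio of TPM + 1 of -0.67, replicate 1 over replicate 2, and the 44 genes had -0.61, so each SD given here mixes this shift with the gene's own scatter. Relative to the protein-coding median, the quartiles of the 44 genes were -0.10 and 0.29, and those of expressed protein-coding genes -0.33 and 0.31. A difference of 2-fold was passed by 1 of the 42: Hdac5, at 1.10 higher in replicate 1, from 366 and 371 counts, with TPM below its deposited interval in both replicates. Among expressed protein-coding genes 4.04% passed in either direction, 79 as higher in replicate 1 and 229 as higher in replicate 2. Hdac5 was 0.99 in the second quantification, just inside 2-fold. With CPM (counts scaled by library size) in place of TPM the count was again 1, but the gene was Sirt1, at -1.02 and so higher in replicate 2, and Hdac5 was at 0.86.

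The genes nearest that mark on the other side were Sirt1 at -0.97 and Arid1a at -0.88, both higher in replicate 2 beyond the common shift, followed by Smarce1 at -0.69. Chd3 stood at 0.78 and Chd4 at 0.59, higher in replicate 1 relative to the shift. The RNA input differed between the libraries as well, 250 and 500 ng, and its part in these differences cannot be told apart from that of the replicate.

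**Figure D4:**
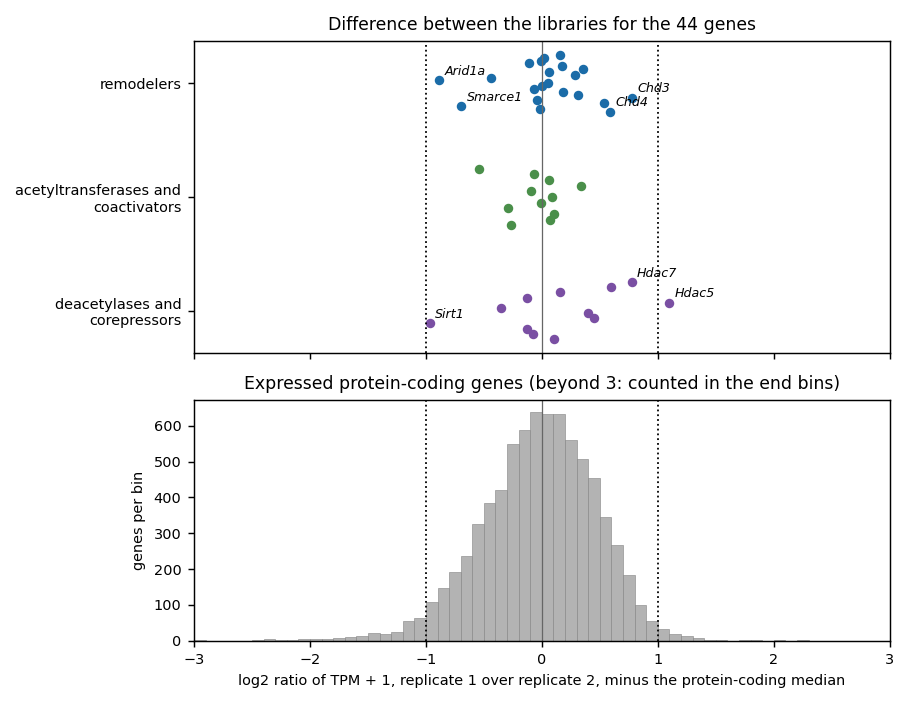
Log2 ratio of TPM + 1, replicate 1 over replicate 2, minus the protein-coding median, for the 44 genes by class (points, upper panel) and for 7633 expressed protein-coding genes (histogram, lower panel), with dotted lines at 2-fold. Hdac5 alone lies past a line, at 1.10.

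RNA of other genes of the same complexes was also largely present, with 115 of 141 expressed, beside 34.7% of all protein-coding genes. None of the expressed ones stood 2-fold apart between the replicates, where 4.04% of expressed protein-coding genes did. These lists too were chosen with earlier results of these data known. Of other NCoR, SIN3 and CoREST genes 24 of 25 were expressed, led by Hmg20b at 26.57 and 46.27 TPM and Mier1 at 19.43 and 49.44 TPM. Of other CHD and NuRD genes 12 of 14 were expressed, led by the NuRD subunit Mta2 at 28.96 and 33.65 TPM and Chd9 at 19.39 and 39.78 TPM. Chd5 (0.07 and 0.07 TPM) and Chd1l (0.82 and 0.67 TPM) were not. Other INO80, SRCAP and TIP60 genes had 23 of 27 expressed, and other acetyltransferases with their complex partners 26 of 29, led by Brd1 at 36.95 and 52.78 TPM.

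Of other BAF and PBAF subunits 9 of 16 were expressed, led by Dpf2 at 46.60 and 65.17 TPM and Brd7 at 20.22 and 42.01 TPM. The neuronal BAF subunit genes Actl6b and Dpf1 had 0.00 and 0.00 TPM and 0.08 and 0.10 TPM, and Smarcd3, the relative of Smarcd1 and Smarcd2, had 0.14 and 0.31 TPM. Of other ISWI genes 6 of 10 were expressed, and the regulatory subunit gene Baz2b, at 88.30 and 213.69 TPM, exceeded its ATPase partner Smarca5 in both libraries. Smarca1, the other ISWI ATPase gene, was listed at 0 TPM in both. Of other deacetylases 4 of 8 were expressed, and 7 of 8 in the second quantification, with Sirt5 there at 6.74 and 21.17 TPM. By the first quantification they included Sirt7 at 28.27 and 31.21 TPM and Sirt6 at 6.45 and 6.97 TPM, while Hdac11 had 0.00 and 0.12 TPM. Other SNF2-type ATPases had 11 of 12 expressed, led by Atrx at 46.44 and 79.73 TPM and Btaf1 at 19.71 and 43.61 TPM.

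**Figure D5:**
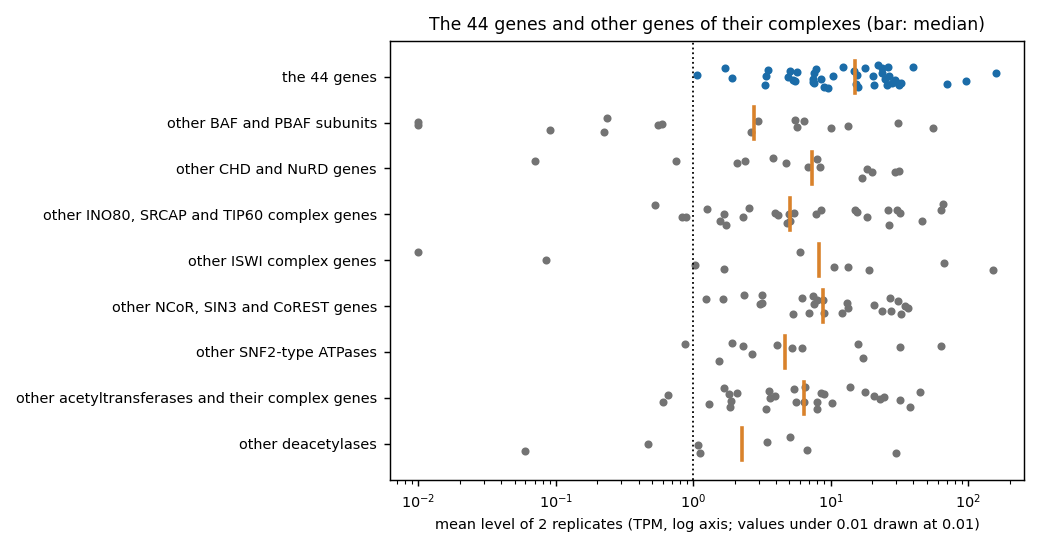
Mean TPM of 2 replicates on a log axis for the 44 genes (blue) and for 141 other genes of the same complexes by list (grey), with an orange bar at each median and a dotted line at 1 TPM. All but 26 of the 141 pass the expression rule in both replicates. The BAF and PBAF list and the ISWI list reach lowest, each with 1 gene at 0 TPM in both replicates.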

How the data were processed

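Per the deposited text and the labels, the authors mapped chromatin RNA reads of 2 libraries to mm10 with GENCODE M21. For each library the authors deposited expected (estimated) counts and TPM per gene and per transcript, with interval bounds whose level is not stated, in columns named as RSEM names them. The authors also deposited a second transcript table of estimated counts and TPM made directly from the reads, in columns named as kallisto names them. For tools, versions and strand use, the sources used here state nothing. TPM keeps no depth and is relative to the whole table.

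The 44 genes and all lists were chosen with earlier results of these data known. Genes were matched by symbol and identifier through the annotation. The 26345 rows that matched no annotated gene, numeric identifiers, spike-ins and phiX, were left out; they held 0.409% and 0.277% of expected counts. A gene was expressed at 1 TPM or more in both replicates. The libraries were compared as log2(TPM + 1), replicate 1 over replicate 2, minus the median of expressed protein-coding genes, with 2-fold as the threshold and no test, since each side is 1 library. A pseudocount of 1 understates changes of low genes. The second quantification was set against the first after dividing by the protein-coding median of that ratio. Pairs were compared within a library. Transcript shares are percent of a gene's transcript TPM. Named in full were the 6 highest and 6 lowest genes by mean TPM, genes of the pairs, genes apart between replicates or quantifications, and the 4 highest and 4 lowest by retained intron share; of other lists, the 2 highest were eligible, with genes under 1 TPM. Expected counts were rounded for the scaling alternatives, TMM (edgeR 4.0.16) and DESeq2 1.42.0 size factors in R 4.3.3; the rest used Python 3.11.15, pandas 2.3.3, numpy 2.4.6 and matplotlib 3.10.9. The 2-fold call between the replicates, and no other calculation, was tried on simulated counts drawn with Poisson noise alone. Alternatives were other scalings, pseudocounts, filters and folds, the second quantification, coding transcripts alone and leaving out each replicate.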

Additional observations from a re-analysis of the deposited data

How the results depend on the processing

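With 1 group there was no contrast, and the 2 libraries limit every statement to a description. No paired analysis was possible because a single group has no second group to pair with. Scaled over protein-coding genes alone, the median level of the 44 genes was 77.1 TPM, against 15.1 TPM on the whole table, a change of unit. The count of genes 2-fold apart between the replicates, 1 as reported, was 5 without the filter on low values, 0 in the second quantification and 7 at a fold of 1.5, and 1 by CPM, where the gene was Sirt1 and not Hdac5; the cause was not tested. The median log2 ratio of the 44 genes, -0.61 by TPM and -0.34 by CPM, turned to 0.21 with TMM factors and 0.18 with DESeq2 size factors. The protein-coding median was -0.67 by TPM, -0.45 by CPM and -0.90 in the second quantification, but 0.06 and 0.04 with TMM and DESeq2 factors. The common shift was thus nearly removed by these factors, and the libraries were compared relative to it. The median retained intron share was 40.2% by TPM, 14.5% by expected counts and 41.4% in the second quantification, and it ran over 39.3 to 39.8% without replicate 1 or 2. The median full-length coding share was 38.2% and fell to 29.2% in the second quantification, where protein-coding genes had 26.4%; that alternative was chosen after seeing the data. The remaining 22 summary values and 76 single values under other settings kept within 1.5 times, for counts, or moved by less than a spread. That spread was the SD between replicates, and for the median log2 ratio the SD over the 44 genes. For pair ratios, leaving out a replicate could not show a move, since each of 2 values always lies within their SD of the mean. Those values are therefore no sign of stability. A further 24 single values, mostly pair ratios, moved beyond these limits. Among these the mean log2 ratio of Ncoa1 over Ncoa2 changed sign, 0.93 over coding transcripts against -0.28 over all, and the expressed count of other deacetylases was 7 in the second quantification, against 4.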
